A study of Mus musculus with 6 samples.

Results

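The insulin-like growth factor (IGF) system was followed through 8 mouse genes, the ligand gene Igf1, its receptor gene Igf1r and the binding protein genes Igfbp2, Igfbp3, Igfbp4, Igfbp5, Igfbp6 and Igfbp7. They were chosen by symbol and each matched 1 row of a table of 45706 genes. RNA came from 6 samples of 3T3-L1, a mouse embryonic fibroblast line that turns into fat-storing adipocytes in culture. All were harvested on day 7 of adipogenic differentiation with insulin, dexamethasone, rosiglitazone and IBMX, so control and knockdown cells alike had been exposed to insulin, a ligand related to IGF1. The 3 scrambled control samples carried a lentiviral shRNA without an intended target and the 3 RBMS1 knockdown samples carried an shRNA against Rbms1, which encodes an RNA-binding protein, and both were stable lines made by puromycin selection, without a statement on single clones. The labels give both lines as wild type by genotype and call the cell type fibroblast, and the study's methods call the 3 samples of a group biological replicates. Neither says whether they came from separate transductions, so p-values measure only the spread between these samples. The comparison asks which transcripts differ in mature adipocytes once RBMS1 is lowered.

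IGF1 is a secreted growth factor that binds the IGF1 receptor, a receptor tyrosine kinase that signals through insulin receptor substrates to the PI3K-AKT and MAPK pathways. Most IGF in body fluids is held by IGF-binding proteins, which limit or prolong access to the receptor and are cut by proteases that release the ligand. Preadipocytes respond to IGF1 and to high insulin through this receptor, and IGF signaling is a known driver of adipocyte differentiation. IGFBP7 is a more distant relative that binds IGFs weakly and also binds insulin.

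Levels are given as CPM, that is, estimated read counts set to a library size of 1000000 after TMM scaling, a correction for libraries that differ in composition. Total counts ranged from 3142695 to 11073098 per sample. Scrambled control replicate 2 was the shallowest library and had 43.0% of its counts in genes derived from ribosomal RNA, against 8.12% to 17.8% in the other 5. Rbms1 itself was at 113, 102 and 99.6 CPM in the scrambled control samples and at 49.2, 61.4 and 84.0 CPM in the RBMS1 knockdown samples. The groups did not overlap, with the smallest reduction in replicate 3, and the log2 fold change was -0.69 (SE 0.20, n = 3 per group, edgeR adjusted p = 0.185). It was -0.92 and called without knockdown replicate 3 (edgeR adjusted p = 0.0708) and -0.31 with library sizes alone (0.572), or -0.68 relative to the shift of all genes in that setting. The study also reports the RBMS1 knockdown at the protein level by immunoblot, which RNA levels do not measure. Adipocyte markers fixed as a list summed to 21004.5 to 24476 CPM in the control and to 10894 to 19765 CPM in the knockdown samples. Lpl, which encodes lipoprotein lipase, had the highest CPM of these markers in every sample, and without it they were 8729, 10391 and 9964 CPM in the control and 9555, 5544 and 7171 CPM in the knockdown samples, which overlap. All 9 of the 10 that were tested lay below 0 in log2 fold change and 1 of them, Retn, was called lower by edgeR (adjusted p = 0.0967), against 0.909% of all tested genes called lower. The Retn call was lost without any 1 sample other than knockdown replicate 1, and its adjusted p ranged from 0.000207 with DESeq2 to 0.358 without control replicate 2. Over the alternatives the lowest adjusted p was 0.0474 for Cfd, 0.0609 for Cebpa, 0.0719 for Plin1 and 0.0876 for Cidec. Their highest values were 0.982, 0.667, 0.929 and 0.979. The other tested markers, apart from Retn and Lpl, passed in no alternative. Lpl, Cebpa and Retn were lower with no overlap between groups, as were 9.55% of all tested genes, and DESeq2 called 2 of the list, Retn and Lpl, against 3.2% of the genes it tested. Retn and Lpl lie on chromosome 8, where the median log2 fold change over tested genes was -0.38. Fibroblast and preadipocyte markers summed to 12233 to 14248 CPM and to 7872 to 16301 CPM, with 0 of 10 called by edgeR and 1, Pdgfra, by DESeq2 (adjusted p = 0.0277). Pdgfra and Dlk1 were lower with no overlap, against the same shares of all genes. Macrophage markers summed to 1.60 to 2.48 CPM and to 2.42 to 3.39 CPM, with Ptprc and Adgre1 at 0, and endothelial markers to 0.172 to 1.99 CPM and to 0.587 to 1.44 CPM, with Kdr at 0. Adipocyte markers were thus abundant in all 6 samples, beside a cell type label of fibroblast. The part of the adipocyte markers in the results below was not tested, and in such bulk RNA fewer cells of a type and less RNA per cell cannot be told apart.

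The sequences before the transcription start of 3 binding protein genes are shown because these genes mark the extremes of the levels reported here. Igfbp4 and Igfbp7 were the most abundant of the 8 transcripts and Igfbp2 had no count in any sample. Each is the 250 bases before the RefSeq start on the gene's own strand, in the GRCm38.p6 assembly, and capitals mark each CG and each TATAAA on either strand.
Igfbp2, chr1:72824230-72824479, plus strand, the first of its 2 annotated starts: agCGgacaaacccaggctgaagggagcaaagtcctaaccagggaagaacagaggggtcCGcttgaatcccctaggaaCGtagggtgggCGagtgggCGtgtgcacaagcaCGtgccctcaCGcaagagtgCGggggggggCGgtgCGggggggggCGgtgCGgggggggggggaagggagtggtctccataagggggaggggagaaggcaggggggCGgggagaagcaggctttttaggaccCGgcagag
Igfbp4, chr11:99040994-99041243, plus strand: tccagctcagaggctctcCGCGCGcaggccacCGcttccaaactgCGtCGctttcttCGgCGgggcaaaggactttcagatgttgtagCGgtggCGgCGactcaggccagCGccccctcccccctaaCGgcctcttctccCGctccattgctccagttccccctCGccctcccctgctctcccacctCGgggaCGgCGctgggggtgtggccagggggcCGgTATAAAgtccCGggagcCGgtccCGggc
Igfbp7, chr5:77408046-77408295, minus strand: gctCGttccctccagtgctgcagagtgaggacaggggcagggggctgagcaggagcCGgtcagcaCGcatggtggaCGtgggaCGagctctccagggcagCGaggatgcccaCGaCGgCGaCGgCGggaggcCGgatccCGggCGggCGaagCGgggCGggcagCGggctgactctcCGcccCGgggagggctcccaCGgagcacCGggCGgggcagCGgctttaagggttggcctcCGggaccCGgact
The Igfbp7 window held 26 CG dinucleotides, the Igfbp4 window 22 and the Igfbp2 window 14. The second Igfbp2 start had 11. Igf1r had the most, 42, followed by Igfbp3 with 32, while Igfbp5 had 10, Igfbp6 had 7 and Igf1 had 5. The median over 32851 RefSeq promoters was 6, and 92.1% of them held at least 1 CG. TATAAA was found on either strand in the windows of Igfbp4 and Igfbp6 and not in the other 6 genes, against 12.4% of all promoters of the same length. These letters are a description of the windows, since binding and methylation at these promoters were not measured in these samples.

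Igf1, Igf1r and Igfbp7 had lower mean levels in RBMS1 knockdown adipocytes, Igfbp4 was nearly level, Igfbp6 had a higher mean level, Igfbp3 varied about as much within the groups as across them, and Igfbp5 and Igfbp2 were at or close to no counts. None of the 6 genes that passed the filter on low counts was called at an adjusted p of 0.1 or less. With edgeR, 0 of 6 were called and 1 of 6, Igf1r, had an unadjusted p under 0.05. With DESeq2 and with limma-voom 0 were called as well, and in each 1 gene, Igfbp7, had an unadjusted p under 0.05. The share of all genes under 0.05 is not given here for these tests. Over all 11440 genes tested with edgeR, 140 were called, which is 1.22%, and 12.4% had an unadjusted p under 0.05. Igfbp6 was the 1 gene of the 6 whose groups did not overlap, against 18.5% of all tested genes (8.96% higher and 9.55% lower), but it passed the filter only with the help of the knockdown samples, where it was high, so this separation is in part fixed by the filter. The log2 fold change was below 0 for 5 of the 6, with a median of -0.39, beside a median of 0.0044 over all genes tested.

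**Figure D1:**
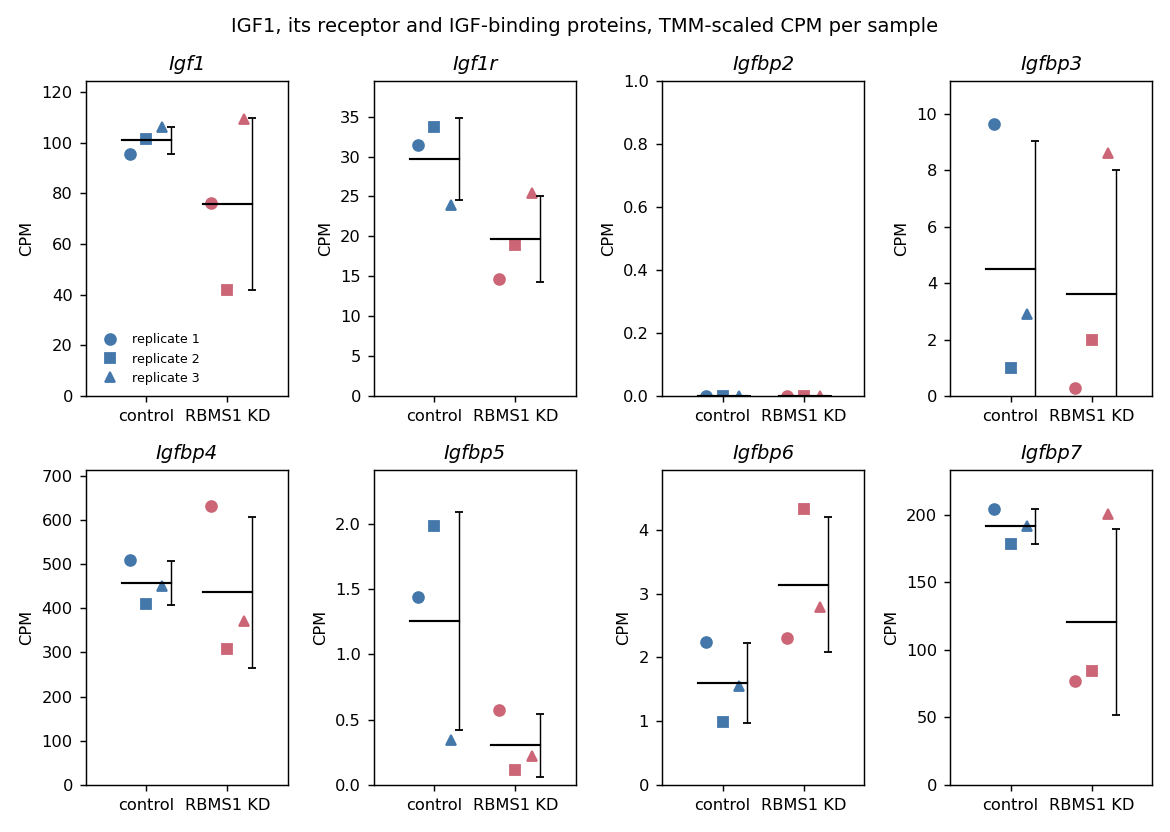
CPM (TMM-scaled counts at a library size of 1000000, linear axes from 0) of the 8 IGF system genes in the 3 scrambled control samples (blue) and the 3 RBMS1 knockdown samples (red), with a panel for each gene. Each point is 1 sample, horizontal lines are group means and vertical bars are ± 1 SD, cut off at 0 for Igfbp3. RBMS1 knockdown replicate 3 lay above the control mean for Igf1, Igfbp3, Igfbp6 and Igfbp7, and Igfbp2 was at 0 in all 6 samples.

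Igf1 lies at chr10:87858265-87937042 on the plus strand of GRCm38 (ENSMUSG00000020053). Its level was 95.5, 101 and 106 CPM in the scrambled control samples and 76.0, 41.8 and 109 CPM in the RBMS1 knockdown samples. Control samples sat close together, whereas knockdown replicate 2 was the lowest and knockdown replicate 3 the highest of all 6, so the groups overlapped. The means were 101 ± 5.23 and 75.8 ± 33.8 CPM (SD, n = 3 per group). The log2 fold change was -0.41 (SE 0.29, 95% interval -1.06 to 0.24, edgeR adjusted p = 0.608). An antisense gene, Igf1os, overlaps the locus without sharing exon bases, and it had 3 counts in knockdown replicate 3 and none elsewhere.

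Igf1r, the gene of the receptor that IGF1 activates, lies at chr7:67952827-68233668 on the plus strand (ENSMUSG00000005533). It was measured at 31.4, 33.7 and 23.9 CPM in the control and at 14.7, 18.9 and 25.4 CPM in the knockdown samples. Knockdown replicates 1 and 2 were below every control sample, and knockdown replicate 3 was above the lowest control. The log2 fold change was -0.59 (SE 0.24), and its 95% interval of -1.12 to -0.047 lay below 0 before adjustment. After adjustment over all tested genes the edgeR p was 0.357, so Igf1r was not called. Both Igf1 and Igf1r moved further from 0 when knockdown replicate 3 was left out, to -0.77 and -0.81, with edgeR adjusted p-values of 0.238 and 0.205. They moved toward 0 without other knockdown samples, Igf1 to -0.11 without replicate 2 and Igf1r to -0.41 without replicate 1. With library sizes alone they were at -0.0076 and -0.18, or -0.38 and -0.55 relative to the shift of all genes. Over all alternatives the adjusted p ran from 0.238 to 0.990 for Igf1 and from 0.205 to 0.750 for Igf1r. In knockdown replicate 3 the library was the deepest and Rbms1 the least lowered of the 3, and the part of either in these values was not tested.

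Igfbp4 encodes a binding protein known as an inhibitor of IGF action until the protease PAPP-A cuts it, and lies at chr11:99041244-99054392 on the plus strand (ENSMUSG00000017493). Its level was 509.6, 409 and 452 CPM in the control and 631, 307 and 372 CPM in the knockdown samples. The knockdown samples lay on both sides of the control range, with replicate 1 above it and replicates 2 and 3 below it. The log2 fold change was -0.065 (SE 0.26, 95% interval -0.64 to 0.51, edgeR adjusted p = 0.947). The sign turned with the scaling, to 0.29 with library sizes alone and 0.067 when genes derived from ribosomal RNA were left out of the library sizes, settings in which the median of all genes also moved, to 0.37 and 0.15. Relative to the shift of all genes the values were -0.081 and -0.076. It also turned without control replicate 1 (0.026), knockdown replicate 2 (0.15) or knockdown replicate 3 (0.043), and was -0.42 without knockdown replicate 1 (edgeR adjusted p = 0.229).

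Igfbp7 lies at chr5:77349240-77408041 on the minus strand (ENSMUSG00000036256). It was at 204, 178 and 192 CPM in the control samples and at 77.2, 84.6 and 200.1 CPM in the knockdown samples. Knockdown replicates 1 and 2 were well below all controls, while replicate 3 fell inside the control range. With all 6 samples the log2 fold change was -0.66 (SE 0.32, 95% interval -1.39 to 0.064, edgeR adjusted p = 0.446). Without knockdown replicate 3 it was -1.24 (SE 0.17) with an edgeR adjusted p of 0.0170, in a fit that called 0.997% of its genes. Without knockdown replicate 1 or 2 it was instead -0.42 and -0.45, and with library sizes alone -0.27, or -0.64 relative to the shift of all genes. No other alternative called Igfbp7, and its adjusted p ranged from 0.0170 to 0.751 over them. Igfbp7 shares 85 exon bases with Polr2b, an RNA polymerase II subunit gene on the opposite strand. The library kit keeps strand but the strand setting of the counting is not given in the sources used here, so reads in those bases may be uncertain. Polr2b had 396, 162 and 440 counts in the control and 580, 557 and 912 in the knockdown samples.

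**Figure D2:**
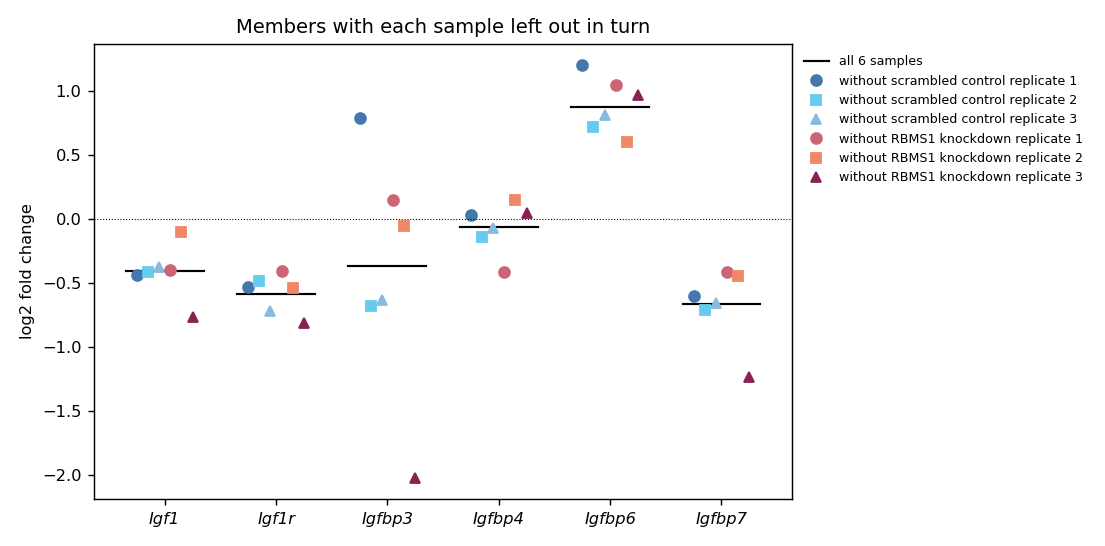
Log2 fold change (RBMS1 knockdown against scrambled control) of the 6 tested IGF system genes with all samples (black line) and with any 1 sample omitted (points, coloured and shaped by the sample left out). Leaving out RBMS1 knockdown replicate 3 moved Igf1, Igf1r, Igfbp3 and Igfbp7 furthest down, to -1.24 for Igfbp7 and -2.03 for Igfbp3, and the sign of Igfbp3 and Igfbp4 depended on the sample left out.

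Igfbp6, known for its preference for IGF2 over IGF1, had groups without overlap, which the filter in part fixes as said above. It lies at chr15:102144362-102149511 on the plus strand (ENSMUSG00000023046). Its level was 2.24, 0.993 and 1.55 CPM in the control samples, from 14, 2 and 9 counts. In the knockdown samples it was 2.30, 4.33 and 2.79 CPM, from 16, 37 and 38 counts. Every knockdown sample was above every control sample, though knockdown replicate 1 exceeded control replicate 1 only narrowly. The log2 fold change was 0.87 (SE 0.48, 95% interval -0.21 to 1.96, edgeR adjusted p = 0.502), and omitting any 1 sample kept it between 0.60 and 1.21.

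Igfbp3, the main carrier of IGFs in blood plasma, lies at chr11:7206086-7213923 on the minus strand (ENSMUSG00000020427). It was at 9.62, 0.993 and 2.92 CPM in the control samples and at 0.288, 1.99 and 8.59 CPM in the knockdown samples. The highest level in each group was several times the lowest, so the spread within groups was nearly as wide as the whole range. Its log2 fold change was -0.37 with an SE of 0.92 and a 95% interval from -2.44 to 1.70 (edgeR adjusted p = 0.913), too wide to show a direction. Leaving out control replicate 1 turned it to 0.78 and leaving out knockdown replicate 1 to 0.15, and leaving out knockdown replicate 3 moved it to -2.03, which was not called either (edgeR adjusted p = 0.418, with 0.418 to 0.995 over all alternatives).

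Igfbp5, which binds matrix as well as IGFs, lies at chr1:72857932-72874884 on the minus strand (ENSMUSG00000026185), with its 3′ end facing that of Igfbp2. It had 9, 4 and 2 counts in the control and 4, 1 and 3 counts in the knockdown samples, and did not pass the filter. At 15 counts in the control group and 8 in the deeper knockdown group, the ratio of knockdown to control per library size was 0.257 (95% exact binomial interval 0.0945 to 0.647). This interval covers counting error only, and reads amplified by PCR without molecular identifiers are not independent molecules. With no filter the edgeR log2 fold change was -1.89 (SE 0.92, adjusted p = 0.540), and DESeq2 gave -2.01 with an adjusted p of 0.619.

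Igfbp2, a binding protein secreted as white preadipocytes differentiate, lies at chr1:72824503-72852474 on the plus strand (ENSMUSG00000039323) and had 0 counts in all 6 samples. A count of 0 allows up to 3 counts, which is between 0.220 CPM in the deepest library and 1.49 CPM in the shallowest, for counting error only. A level under that limit was not detectable at this depth and no fold was computed.

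To compare genes with each other, CPM was divided by the length of each gene's merged exons in kb, which understates a gene whose cells use a short isoform. In the control samples Igfbp7 stood at 158 ± 10.8 CPM per kb and Igfbp4 at 103 ± 11.4 (SD, n = 3), and their ranges did not overlap. Igf1 followed at 10.2 ± 0.528 CPM per kb. Igf1r at 1.77 ± 0.306, Igfbp3 at 1.44 ± 1.45 and Igfbp6 at 1.43 ± 0.564 CPM per kb did not differ beyond their spread, and Igfbp5 had the lowest mean of those with counts, 0.209 ± 0.139, with a range that overlapped that of Igfbp3. In the knockdown samples Igfbp7 at 99.8 ± 57.0 and Igfbp4 at 98.9 ± 38.8 CPM per kb overlapped in range. Next came Igf1 at 7.65 ± 3.41 and Igfbp6 at 2.82 ± 0.950 CPM per kb, without overlap. Igfbp6 lay above all 3 values of Igf1r, 1.17 ± 0.322 CPM per kb, while Igfbp3 at 1.16 ± 1.40 overlapped both.

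The binding protein transcripts were therefore made up almost wholly of Igfbp4 and Igfbp7, which together held 96.8% to 99.4% of the summed CPM per kb of Igfbp2 to Igfbp7 in every sample. A share within a library does not depend on how libraries are scaled. Igfbp7 made up 58.3%, 61.0% and 60.2% in the control samples, and 30.6%, 48.6% and 64.9% in the knockdown samples. Igfbp4 made up 39.8%, 38.4% and 38.9% in the control and 68.4%, 48.3% and 33.0% in the knockdown samples. The controls agreed within a few percentage points, whereas the knockdown samples spread to both sides of them. Accordingly the ratio of Igfbp7 to Igfbp4 was 1.46, 1.59 and 1.55 in the control and 0.447, 1.01 and 1.96 in the knockdown samples. The share of Igfbp6 was 0.697%, 0.369% and 0.529% in the control and 0.990%, 2.699% and 0.983% in the knockdown samples, with no overlap. In two-sided exact permutation tests of the 5 shares that could be tested, p was 0.1 for Igfbp6, which is the smallest that 3 against 3 samples allow, 0.2 for Igfbp5, 0.4 for Igfbp4 and for Igfbp7 and 1 for Igfbp3. After adjustment over the 5 shares, p was 0.5 for Igfbp6 in the exact test. The summed binding protein level over that of Igf1 was 30.0, 23.6 and 24.6 in the control and 27.2, 34.1 and 23.1 in the knockdown samples, so the ranges overlapped.

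**Figure D3:**
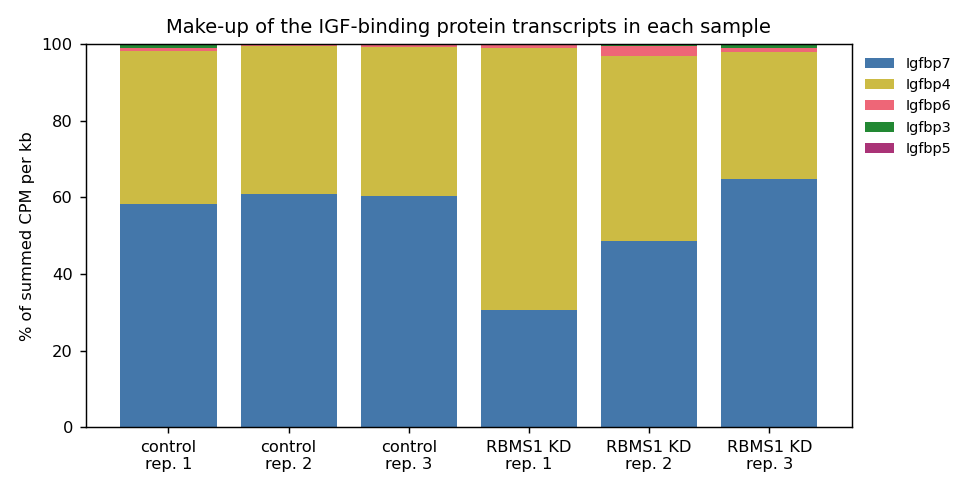
Share of each IGF-binding protein transcript in the summed CPM per kb of Igfbp2 to Igfbp7 (percent, stacked to 100), with a bar for each of the 6 samples. Igfbp7 (blue) held 58.3% to 61.0% in the control samples and 30.6% to 64.9% in the RBMS1 knockdown samples, and the shares of Igfbp3 and Igfbp5 were near the limit of what the plot can show.

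Profiles over the 6 samples were compared as the root mean square difference of log2 CPM after centring each gene on its mean. For Igf1 the nearest of 11439 genes were Cachd1 (difference 0.0792 on the log2 scale), Mdm1 (0.150) and Fam105a (0.158), beside a median of 0.566 over all genes. Cachd1 was at 13.3, 14.4 and 17.0 CPM in the control and at 11.9, 6.43 and 15.9 CPM in the knockdown samples, with its lowest value in knockdown replicate 2 as for Igf1. For Igf1r they were Tfap2a (0.113), Nek8 (0.114) and Ocel1 (0.119), beside a median of 0.502. Tfap2a was at 37.8, 44.2 and 32.0 CPM in the control and at 21.7, 26.2 and 38.9 CPM in the knockdown samples, again with knockdown replicate 3 above the lowest control. Among the tested genes of the 8, the closest pairs were Igf1r with Igfbp7 (0.315) and Igf1 with Igfbp7 (0.352), and both are further apart than the 3 nearest genes of Igf1 and of Igf1r. With so many genes and 6 samples, a close profile is a description only.

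The other genes of the pathway were followed in 5 lists of 46 genes, of which 45 were found by symbol and 36 were tested. Of these 36, 2 were called lower in RBMS1 knockdown adipocytes, Grb10 and Stc1, and 0 were called higher, against 0.909% and 0.315% of all tested genes. The groups did not overlap for 8 genes that were lower and 4 that were higher, beside 9.55% and 8.96% of all tested genes. The median log2 fold change over the 36 was -0.10. DESeq2 called 5 of them, Grb10, Stc1, Igf2, Irs2 and Igf2bp2, against 3.2% of all genes it tested.

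Grb10 encodes an adaptor that binds the activated IGF1 and insulin receptors and restrains their signal. It was at 21.6, 14.4 and 13.6 CPM in the control samples and at 1.29, 3.74 and 1.25 CPM in the knockdown samples. All 3 knockdown samples were far below the lowest control, and the log2 fold change was -2.99 (SE 0.45, edgeR adjusted p = 0.0333). At 9 and 17 counts in knockdown replicates 1 and 3, Grb10 passed the filter through the control samples, where it was high. Its separation, 1 of the 8 lower ones counted above, is therefore in part fixed by the filter. The call was lost when any 1 control sample was left out, with edgeR adjusted p-values of 0.132, 0.106 and 0.107 without replicates 1, 2 and 3, at log2 fold changes of -2.74, -3.09 and -3.12. Without knockdown replicate 2 the log2 fold change was -3.68 (edgeR adjusted p = 0.0206). Stc1, which encodes a glycoprotein inhibitor of the PAPP-A proteases, was at 21.3, 12.9 and 14.6 CPM in the control and at 5.46, 4.33 and 4.62 CPM in the knockdown samples. Here too the groups were well separated, with a log2 fold change of -1.77 (SE 0.27, edgeR adjusted p = 0.0333). Stc1 lost its call without control replicate 1, 2 or 3 (edgeR adjusted p = 0.132, 0.106 and 0.118), without knockdown replicate 2 (0.134) and with library sizes alone (0.108). Its log2 fold changes in these settings were -1.52, -1.91, -1.85, -1.69 and -1.44, the last being -1.81 relative to the shift of all genes.

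Among the other ligands, receptors and carriers, 0 of the 5 tested were called by edgeR and 1, Igf2, by DESeq2, and all 5 lay below 0. The shares called over all tested genes were 1.22% and 3.2%. Igf2, the fetal ligand that also binds the IGF1 receptor, was at 62.7, 100.3 and 74.7 CPM in the control and at 18.4, 41.1 and 13.1 CPM in the knockdown samples. Every knockdown sample was below every control sample, but the log2 fold change of -1.71 (SE 0.38) did not pass at an edgeR adjusted p of 0.108, which ranged from 0.000617 with DESeq2 to 0.363 over the alternatives. It passed in 6 of them, with DESeq2, limma-voom (0.0884), no filter on low counts (0.0304) and the replicate block (0.0838), and without knockdown replicate 1 (0.0721) or 2 (0.0406). The log2 fold change was -2.32 without knockdown replicate 2 and -1.40 without knockdown replicate 3. Kazald1, an IGF-binding protein related gene, also had no overlap, with 5.77, 9.93 and 5.85 CPM in the control and 2.16, 3.86 and 4.77 CPM in the knockdown samples, and a log2 fold change of -0.93 (SE 0.39, edgeR adjusted p = 0.376). A pair of receptor genes outside the rule for named genes, picked with their values in view, is given for context. Insr, the insulin receptor gene, was at 251, 293 and 291 CPM in the control and at 333, 182 and 154 CPM in the knockdown samples, with a log2 fold change of -0.32 (SE 0.27, edgeR adjusted p = 0.678). It lies on chromosome 8, where all tested genes together had a median of -0.38, so its value with all samples was not below that median. With each sample left out Insr ranged from -0.72 to -0.11. Its adjusted p spanned 0.0411 to 0.958 over all alternatives, so it passed in at least 1 of them. Igf2r, whose product clears IGF2, had a log2 fold change of -0.082 (SE 0.17, edgeR adjusted p = 0.895). The insulin genes Ins1 and Ins2, the insulin receptor-related gene Insrr, and Igfbp1 and Igfbpl1 had no count in any sample.

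**Figure D4:**
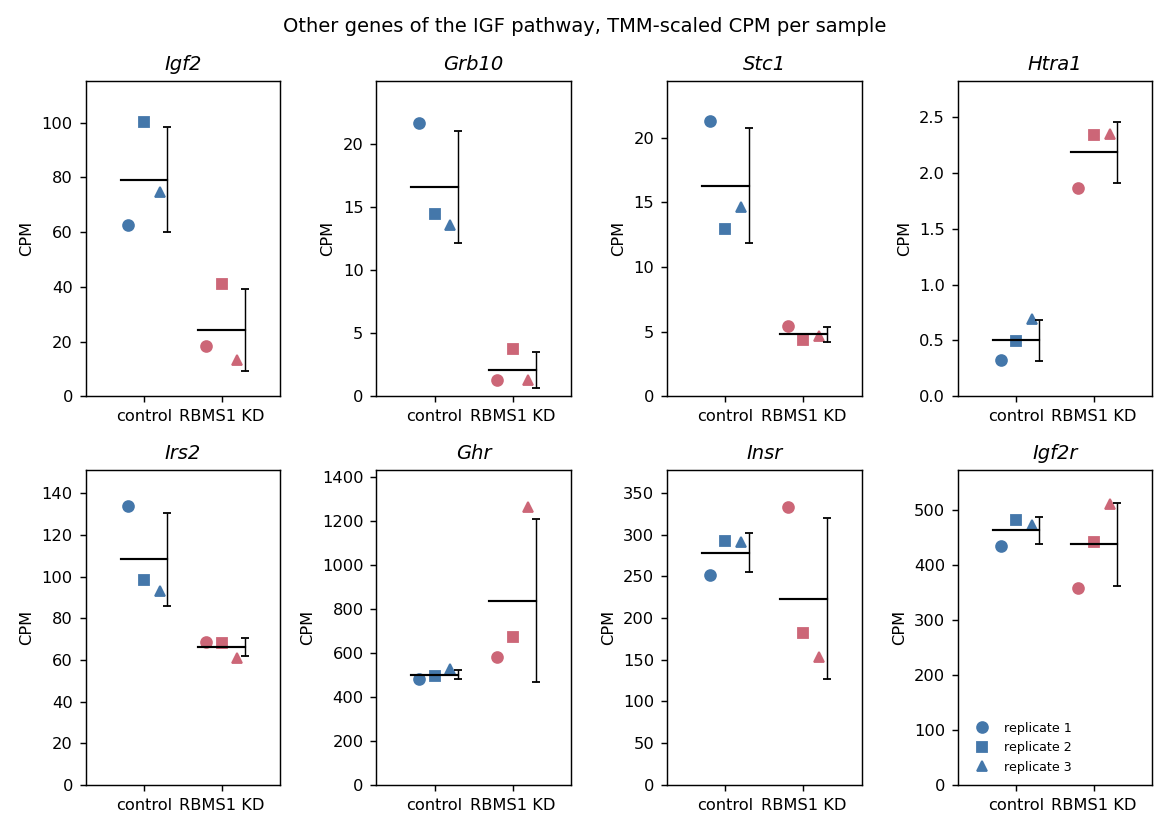
CPM (TMM-scaled counts at a library size of 1000000, linear axes from 0) of 8 other IGF pathway genes in the 3 scrambled control samples (blue) and the 3 RBMS1 knockdown samples (red). Points are samples, horizontal lines are means and vertical bars are ± 1 SD. Grb10 and Stc1, the genes called lower by edgeR, separate the groups fully, Igf2, Irs2, Htra1 and Ghr also do so without being called by edgeR, and Insr and Igf2r overlap.

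Proteases and protease inhibitors of the binding proteins had 1 gene called of 9 tested, Stc1, by edgeR and by DESeq2. Beside it, 1.22% and 3.2% of all tested genes were called. Htra1, a serine protease reported to cut binding proteins, was at 0.321, 0.496 and 0.688 CPM in the control and at 1.87, 2.34 and 2.35 CPM in the knockdown samples, from 7 and 65 counts in all. At these counts it passed the filter through the knockdown samples alone, so its separation, 1 of the 4 higher ones counted above, is in part fixed by the filter. The groups were well apart at a log2 fold change of 2.10 (SE 0.61), which was not called (edgeR adjusted p = 0.176). Pappa, the gene of the protease that cuts IGFBP4, gave a log2 fold change of -0.20 (SE 0.34, edgeR adjusted p = 0.853). It is outside the rule for named genes and was picked with its value in view. Stc2 had no count in any sample.

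Among receptor adaptors and docking proteins, Grb10 was the 1 gene of 12 tested that edgeR called, and DESeq2 called 2, Grb10 and Irs2. Over all genes they tested, edgeR called 1.22% and DESeq2 3.2%. Irs2, a main docking protein of both receptors, was at 134, 98.3 and 93.1 CPM in the control and at 68.9, 68.3 and 61.1 CPM in the knockdown samples. The groups did not overlap, and the log2 fold change was -0.72 (SE 0.17, edgeR adjusted p = 0.129). Irs2 passed with DESeq2 (adjusted p = 0.0355), with the GC content and length trend removed (0.0894) and without knockdown replicate 1 (0.0688), and over all alternatives its adjusted p spanned 0.0355 to 0.617. Gab1, a docking protein used by several receptors, had a log2 fold change of -0.40 (SE 0.16, edgeR adjusted p = 0.338), also without overlap. Both lie on chromosome 8, whose tested genes had a median log2 fold change of -0.38. After the removal of chromosome medians, Irs2 moved to -0.33 (edgeR adjusted p = 0.617) and Gab1 to -0.012 (edgeR adjusted p = 0.987). Irs4 had no count in any sample.

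In the growth hormone branch, which controls Igf1 transcription through STAT5 in many tissues, 0 of 7 genes were called by edgeR or by DESeq2. Ghr, the growth hormone receptor gene, was at 484, 496 and 525 CPM in the control and at 580.2, 671 and 1264 CPM in the knockdown samples. Each knockdown sample was above the controls, with replicate 3 far above the rest, and the log2 fold change was 0.74 (SE 0.28, edgeR adjusted p = 0.313). Without knockdown replicate 3 it was 0.32 (edgeR adjusted p = 0.568), and without knockdown replicate 1 it was 0.96 and called (edgeR adjusted p = 0.0612), within a range of adjusted p from 0.0612 to 0.622 over the alternatives. Stat5a had a log2 fold change of -0.36 (SE 0.14, edgeR adjusted p = 0.333) without overlap, which turned to 0.019 with library sizes alone, a setting whose median over all genes was 0.37 and relative to whose shift Stat5a was at -0.35. Socs3, a feedback inhibitor of cytokine receptors, was at 111, 65.0 and 67.1 CPM in the control and at 6.76, 55.6 and 27.5 CPM in the knockdown samples, with a log2 fold change of -1.44 (SE 0.57, edgeR adjusted p = 0.346). The groups of Socs3 did not overlap, but knockdown replicate 2 came close to the controls. Leaving out that replicate moved it to -2.22 and leaving out knockdown replicate 1 to -0.96, and neither was called (edgeR adjusted p = 0.238 and 0.139).

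The mRNA-binding proteins named after Igf2 had 0 of 3 genes called by edgeR and 1, Igf2bp2, by DESeq2, against 1.22% and 3.2% of all tested genes. Igf2bp2 and Igf2bp3 were higher with no overlap, as were 8.96% of all tested genes. Igf2bp2 was at 77.9, 66.5 and 73.5 CPM in the control and at 101, 115 and 104 CPM in the knockdown samples, a log2 fold change of 0.55 (SE 0.14, edgeR adjusted p = 0.147). The adjusted p was 0.0680 with DESeq2 and ranged from 0.0657 to 0.428 over the alternatives. For Igf2bp3 the log2 fold change was 0.42 (SE 0.17, edgeR adjusted p = 0.356). The part of the Igf2bp genes in the levels of Igf2 was not measured.

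**Figure D5:**
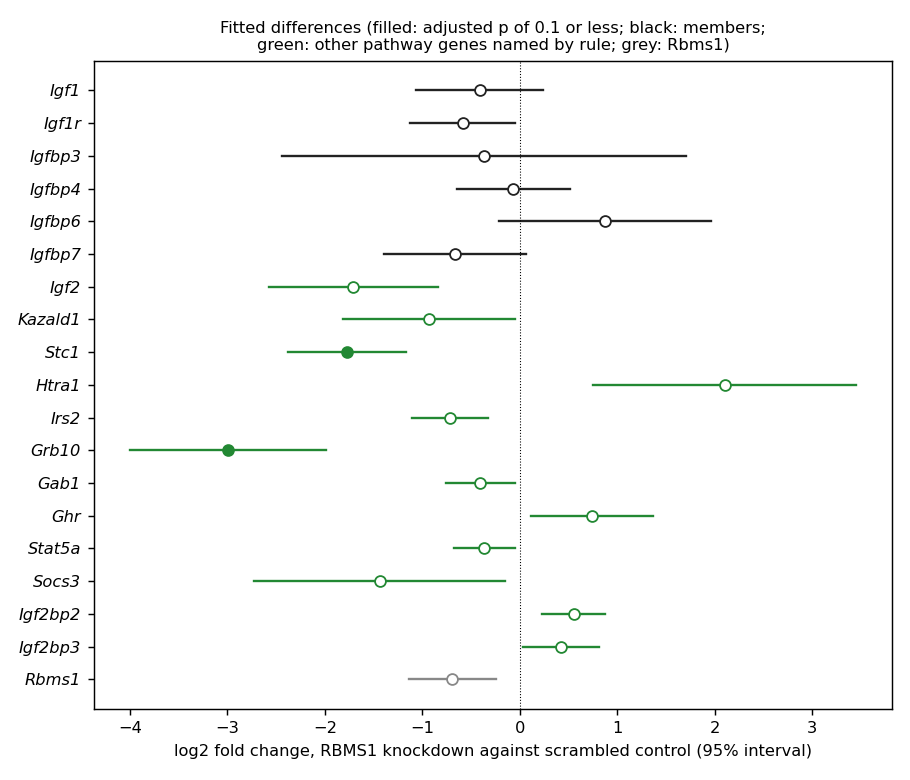
Log2 fold change of RBMS1 knockdown against scrambled control (x axis) with 95% interval for the 6 tested IGF system genes (black), the 12 other pathway genes named by rule (green) and Rbms1 (grey). Filled points are genes called by edgeR at an adjusted p of 0.1 or less, which are Stc1 and Grb10, and all 6 black points are open.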

How the data were processed

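RNA of 3 scrambled control and 3 RBMS1 knockdown samples of 3T3-L1 adipocytes at day 7 was sequenced from stranded total RNA libraries. The authors trimmed reads with Trim Galore 0.6.7, used STAR 2.7.10a for alignment to GRCm38 and Salmon 1.9.0 for quantification, and deposited estimated counts per gene without normalization. Between 3.97% and 7.78% of the 45706 genes in a sample had values that were not whole (tolerance 1e-06). The annotation release and the strand setting of the counting are not given in the sources used here. Total counts per sample are in the text above. Their differences limit the precision of low genes, and a count of 0 was read as allowing 3 counts.

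After rounding, the main test was edgeR 4.0.16 in R 4.3.3, with condition as the only term (glmQLFit with its newer dispersion estimates and glmQLFTest, after filterByExpr and TMM). Of 45706 genes, 26300 had no count and 11440 passed the filter. Adjustment was by Benjamini-Hochberg over all tested genes, a gene was called at an adjusted p of 0.1 or less, and an SE is the log2 fold change over the root of F. DESeq2 1.42.0 and limma 3.58.1 were alternatives. Positions and exon lengths came from GENCODE M21 on GRCm38, which held 11402 of the tested genes, and all 8 promoters came from a RefSeq table on GRCm38.p6. On simulated data for this comparison (11440 genes), edgeR recovered 83.3% of 192 changed genes and 11.1% of its 180 calls were false. The planted changes were all larger than the fitted change of any tested gene of the 8. Recovery of changes as small as theirs was not simulated.

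The 8 genes and the lists were chosen with earlier results of these data known. Genes named are the 8 and Rbms1, the tested members of the 5 pathway lists that were called or had no overlap between groups, list members without any count, the 3 nearest profiles of Igf1 and of Igf1r, and marker genes where a defining marker was at 0 or a count turned on it. Igf1os and Polr2b, which overlap 2 of the 8 genes, and the markers Lpl, Cebpa, Cfd, Plin1, Cidec, Pdgfra and Dlk1 fall outside this rule, as do the genes so described in the text and closing section, and were chosen with their values in view. The symbol Rack1 was not found in the table. The exact test of shares was adjusted over 5 shares, since Igfbp2 had no counts. Replicate numbers did not pair the samples (correlations of same-numbered deviations -0.14, 0.078 and -0.028). The alternatives were other scalings, filters, tests, dispersion estimates, a GC content and length correction, the removal of chromosome medians, the replicate block and each sample left out.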

Additional observations from a re-analysis of the deposited data

How the results depend on the processing

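Under 19 alternatives, 6 of which left out a sample each, the number of the 8 genes called remained 0 except for 1 without RBMS1 knockdown replicate 3 (range 0 to 1), which was Igfbp7. Of the recomputed fold changes of the tested genes among the 8, 105 kept their direction and their side of the threshold, 8 turned and 1 became called. Igfbp4 (-0.065) turned to 0.29 with library sizes alone, to 0.067 with genes derived from ribosomal RNA left out of the library sizes and to 0.015 with chromosome medians removed, and ranged from -0.42 to 0.15 with each sample left out. Igfbp3 ranged from -2.03 to 0.78 and the difference in its share (main 0.0043 percentage points) from -0.273 to 0.277 with each sample left out, and the share difference was -0.188, -0.0760 and -0.273 without control replicate 2, control replicate 3 and knockdown replicate 3. Stat5a turned to 0.019 with library sizes alone. The turns with another scaling came with the shift of all genes given below, relative to which Igfbp4 was at -0.081 and -0.076 and Stat5a at -0.35, and the cause of the other turns was not tested. Among the other 12 named pathway genes, 206 values were unchanged in call and direction, 13 became called, 8 lost their call and 1 turned.

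The number of genes called over the whole table, 140 in the analysis as reported, was 430 with DESeq2, 268 with no filter on low counts, 73 with chromosome medians removed and 39 with the replicate block, in which none of the 8 genes was called. Because the numbers share no stated origin, that block is no paired analysis of cultures. With DESeq2 the study itself reports 430 genes at an adjusted p of 0.1 or less, 66% of them lower. Leaving out a sample gave 12 to 696 genes: 21, 12 and 32 without control replicates 1, 2 and 3, and 696, 38 and 116 without knockdown replicates 1, 2 and 3. The share of called genes that were lower was 74.3% in the analysis as reported, 33.3% with library sizes alone, 44.4% without genes derived from ribosomal RNA in the library sizes, 61.2% to 100% with a sample left out (100% of 12 genes without control replicate 2, 89.5% without knockdown replicate 2, 85.7% without control replicate 1 and 61.2% without knockdown replicate 1), and 84.6% with the replicate block, and the first 2 of these alternatives shift the median of all genes to 0.37 and 0.15. Igfbp2, Igfbp5, Igfbp6 and Igfbp3 had the lowest total counts of the 8 genes in either group, at 0 to 117 counts per sample. The part of depth in their spread was not tested.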

Other observations

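These values were picked after they were seen and are given with no explanation. Igfals, the gene of the acid-labile subunit that joins IGFBP3 and IGF in the circulating complex, was at 7.53, 3.97 and 2.41 CPM in the scrambled control samples and at 0.288, 1.05 and 5.36 CPM in the RBMS1 knockdown samples. Its order over the samples resembled that of Igfbp3, with control replicate 1 and knockdown replicate 3 highest in their groups and knockdown replicate 1 lowest of all, at 2 counts for either gene. The log2 fold change of Igfals was -0.98 (SE 0.81, edgeR adjusted p = 0.677), and without knockdown replicate 3 it was -2.73 (edgeR adjusted p = 0.169).

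Of the 3 SOCS family genes in the growth hormone list, Socs2 and Cish had their highest level in knockdown replicate 3 and Socs3, at 27.5 CPM there, was below all controls. Socs2 was at 14.3, 13.9 and 20.8 CPM in the control and at 10.9, 13.7 and 42.9 CPM in the knockdown samples. Cish was at 7.69, 6.45 and 5.16 CPM in the control and at 3.02, 7.95 and 15.4 CPM in the knockdown samples. Neither was called, with log2 fold changes of 0.46 (SE 0.47, edgeR adjusted p = 0.746) and 0.47 (SE 0.50, edgeR adjusted p = 0.759). Without knockdown replicate 3 both turned, Socs2 to -0.41 and Cish to -0.22.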
